A study of Mus musculus with 6 samples.

Results

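The proteasome genes described here are all genes on the array whose symbol begins with Psm, a class letter from a to g and a number. The rule took 49 of the 15063 genes named by a single symbol on the array, with 50 of its 21766 probes. The core particle has 19 of these probes (8 of the alpha ring, 6 of the constitutive beta ring and 5 of the immune and thymic beta subunits), and the regulatory particle has 20 (6 ATPases and 14 non-ATPase subunits). Another 9 belong to activators, an inhibitor and assembly chaperones, and the last 2, Psmc3ip and Psme3ip1, encode interacting proteins that are not subunits. Counts of subunits below take in both particles and the 9 probes of activators, inhibitor and chaperones. The regulatory particle is counted by symbol and so holds the base assembly chaperones Psmd5, Psmd9 and Psmd10. Of the 49 subunit genes of these classes in the mouse gene table, 47 had a probe. Psmb4 and Psme2 had none under the rule. The probe of Psme2b, a near-identical copy of Psme2, may also bind Psme2 transcripts, so its values are uncertain as to the gene.

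The proteasome is the protease that degrades proteins tagged with ubiquitin. Its core particle is a barrel of stacked rings: the outer alpha rings gate the entry and the inner beta rings carry the active sites, on the products of Psmb5, Psmb6 and Psmb7. Under interferon and in immune cells these are replaced by Psmb8, Psmb9 and Psmb10, and thymic epithelium uses Psmb11. The regulatory particle binds ubiquitin chains, removes them and unfolds the substrate with a ring of ATPases (Psmc) held by non-ATPase subunits (Psmd). Subunit genes are known to be transcribed together through Nfe2l1, which restores them when proteasome activity is short, and neurons and their progenitors use the proteasome to turn over cell cycle regulators and synaptic proteins.

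RNA of 6 single cortices from E12.5 mouse embryos with a disrupted Mest (Peg1) gene was set against RNA of single wild-type cortices on 6 two-colour oligonucleotide arrays. Mest is imprinted and active on the paternal copy. The mutants inherited from their fathers a LacZ-targeted allele that has lost exons 3 to 8, and their mothers were wild type. Mutants 3, 5 and 6 were labelled with Cy5 and mutants 1, 4 and 7 with Cy3, and each of 3 wild-type cortices (2, 8 and 9) was taken as used once per dye. The sources used here do not give the strain. The allele is a constitutive one, so that the mutant cortex lies in an embryo that lacks the paternal copy in other tissues too. The label of the array of mutant 3 names wild type 1, which the design does not list, and it was read as wild type 2. Values are given on the log2 scale as the mutant's signal over that of the wild type, each array being centred on the median of its probes, in the order of mutants 3, 5, 6, 1, 4 and 7. They show differences only, and no level of any gene. In whole cortices, fewer cells of a type and less RNA per cell cannot be told apart.

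The promoters of 4 catalytic subunits show which motifs of known proteasome regulators lie near the start sites of the genes that exchange with each other in the core. RefSeq's GRCm38.p6 promoter table held 44 windows, from 250 bases before to 50 after the start, for 41 of the 49 genes. The following are 100 bases before to 20 after the start, 5′ to 3′ on the gene's strand, with matches to TGACNNNGC or CCAAT on either strand in capitals.
Psmb5, chr14:54617976-54618095, minus strand: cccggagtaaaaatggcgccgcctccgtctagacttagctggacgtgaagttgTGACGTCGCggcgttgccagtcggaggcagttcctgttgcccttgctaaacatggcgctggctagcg
Psmb6, chr11:70525257-70525376, plus strand: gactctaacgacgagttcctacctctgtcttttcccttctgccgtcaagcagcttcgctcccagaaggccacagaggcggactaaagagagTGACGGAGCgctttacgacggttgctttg
Psmb8, chr17:34198095-34198214, plus strand: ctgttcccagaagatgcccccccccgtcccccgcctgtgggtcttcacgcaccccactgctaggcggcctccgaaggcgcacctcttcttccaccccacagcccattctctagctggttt
Psmb9, chr17:34187311-34187430, minus strand: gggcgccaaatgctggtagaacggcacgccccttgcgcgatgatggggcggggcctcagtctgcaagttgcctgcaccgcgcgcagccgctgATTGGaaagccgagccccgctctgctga

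TGACNNNGC is the core of the antioxidant response element, which Nfe2l1 and Nfe2l2 bind. It matched 47 bases before the start of Psmb5 and 9 bases before that of Psmb6, and was in 6 of the 44 proteasome windows (13.6%), against 12.4% of all 32851 windows of the same length. The other 4 genes with it were Psmd9, Psmd12, Psmc6 and Psme4. CCAAT, the box bound by the factor NF-Y, was in 16 of the 44 windows (36.4%), against 37.4% of all windows. It was in 8 of 15 core windows (53.3%), Psmb9's among them on the opposite strand, and in 5 of 18 regulatory windows (27.8%). The core of the interferon-stimulated response element, searched as GAAA, any 2 bases and GAAA, was in 5 of the 44 windows (11.4%), those of Psmd4, Psmd9, Psmb3, Psmg4 and Psme1, against 3.44% of all windows. The shares of the first pair of motifs lie near those of all promoters, and that of the third is higher, over few windows. These matches are letters in a window and say nothing of binding in this tissue.

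The targeted gene Mest was lower in every mutant, at -1.36, -1.78, -1.39, -1.50, -2.07 and -1.44. Its fitted log2 ratio was -1.59 (SE 0.13, 95% confidence interval -1.91 to -1.27, SD 0.28, n = 6), and its adjusted p was 0.60 in limma, the smallest of all probes. An array gave values for 16422 to 19564 probes, and 17476 were tested. The medians of the deposited ratios, before centring, ran from -0.59 to 0.76, with the largest offsets on the arrays of wild type 8. The 10 tested probes of cortical progenitor and neuron markers had a median of 0.02, with fits from -0.13 to 0.13, and all had a value on every array. After turning, arrays of one dye orientation correlated over probes at 0.18 to 0.35, and arrays of opposite orientation at -0.44 to -0.14. A dye term was therefore fitted beside the genotype.

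No proteasome probe passed the test of mutant against wild type. Of the 50 probes 48 had enough values to be tested, 44 of them with a value on all 6 arrays, and 0 were called by limma at an adjusted p of 0.05, where 0% of all 17476 probes were called. The smallest adjusted p was 0.90. At an unadjusted p of 0.05, Psmb7 was lower and Psme3ip1 higher, against 2.33% of all tested probes lower and 1.6% higher. The ratios varied less than those of most probes: the 95% confidence interval lay within 0.5 of 0 for 35 of the 46 tested subunit probes (76.1%), against 44.2% of all tested probes. The median SD over arrays was 0.19 for subunit probes and 0.41 for all. Since the members were picked with results of these arrays known, counts and medians over them are descriptions without a test.

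**Figure D1:**
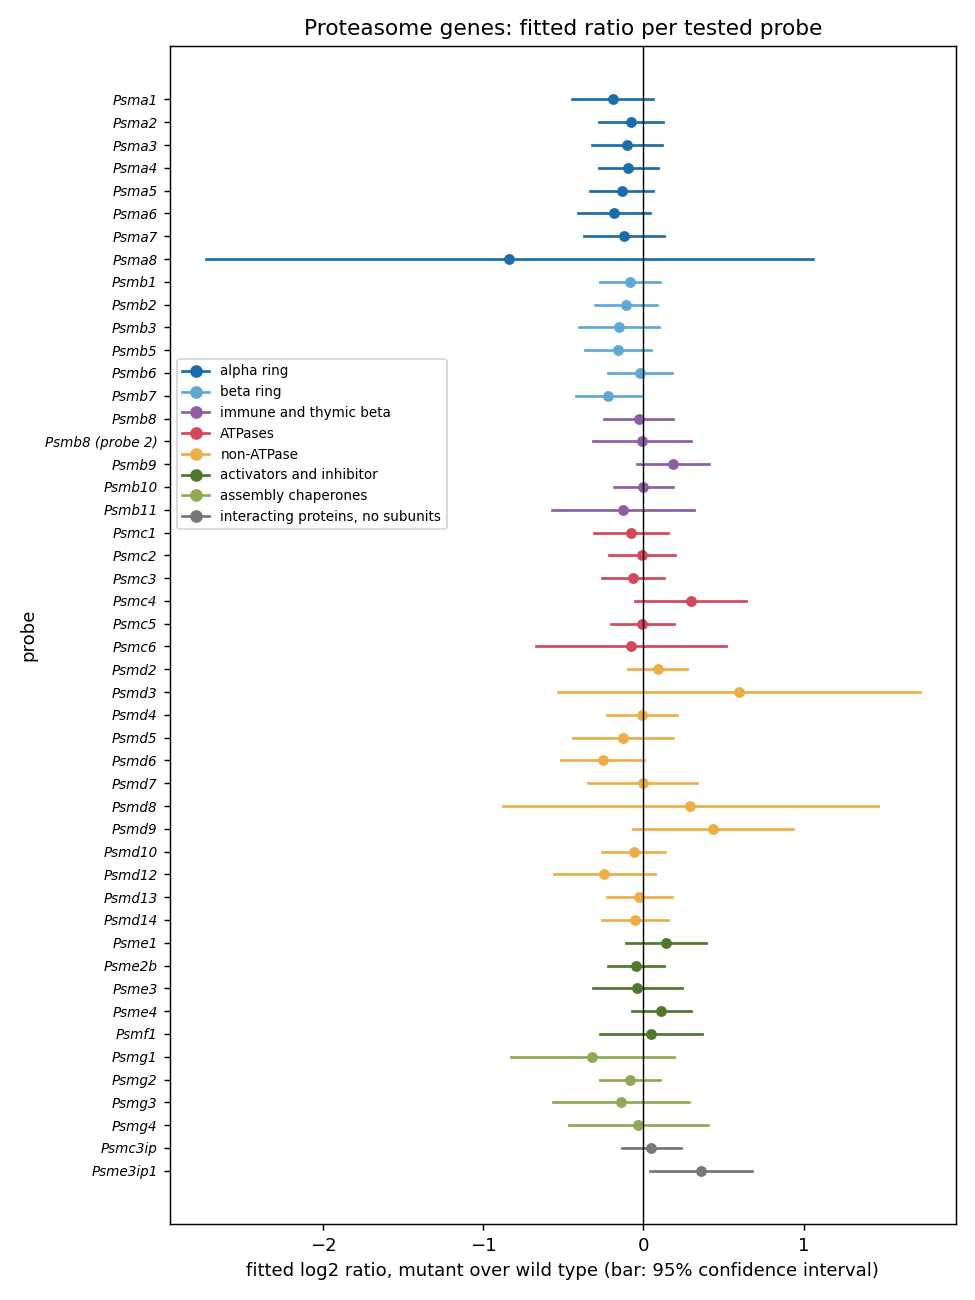
Fitted log2 ratio of mutant over wild type (x axis) with its 95% confidence interval for each of the 48 tested probes (y axis), coloured by role. All 14 probes of the alpha ring and the constitutive beta ring lie left of 0, where 0 is the median of each array, and without centring 13 of these 14 lie right of it. Of all intervals, those of Psmb7 and Psme3ip1 exclude 0.

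The alpha ring and the constitutive beta ring of the core had ratios below the array median, from -0.02 for Psmb6 to -0.22 for Psmb7, with Psma8 apart at -0.84. All 14 probes of the alpha ring and the constitutive beta ring had a fitted ratio below 0, where 48.7% of all tested probes did, with a median of -0.13, but without centring, with centring on Gapdh spots or with quantile normalization only 1 of the 14 lay below 0. Those settings moved the median of all probes from 0.01 to 0.26, so that the ratios are best read against it. The core median, with the immune and thymic subunits, was -0.11, and it lay 0.05 to 0.14 below the median of all probes in each of the 23 alternatives. On the 6 arrays the medians of the 14 probes were -0.20, -0.12, -0.11, -0.05, -0.12 and -0.22 (mean -0.14 ± 0.06, SD, n = 6). The rings were thus below the median on each array.

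Among the alpha subunits, which form the gate and dock the regulatory particle, Psma6 had the smallest p. It gave -0.24, -0.02, -0.02, -0.17, -0.21 and -0.43, all below 0 and lowest in mutant 7. Its fit was -0.18 (SE 0.09, limma adjusted p = 0.90). Psma2 stood highest in the ring and gave 0.06, -0.11, 0.14, -0.10, -0.27 and -0.19. Its values lay above 0 on 2 arrays, both with the mutant in Cy5, and the fit was -0.08 (SE 0.08). Psma1 (-0.19), Psma3 (-0.10), Psma4 (-0.09), Psma5 (-0.14) and Psma7 (-0.12) lay between these fits or near them. Psma7 differed with the dye: it was below 0 in the 3 mutants labelled with Cy5 and above 0 in the other 3.

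Psma8, an alpha subunit known from the testis, where it replaces Psma7, stood apart through 1 array. It gave -4.68 in mutant 3, and -0.09, -0.38, 0.15, 0.33 and -0.35 in the others, which lie on both sides of 0. Its fit of -0.84 (SE 0.75, 95% interval -2.73 to 1.06), the lowest of all members, became -0.09 without mutant 3.

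In the constitutive beta ring, Psmb7, which carries the trypsin-like activity, had the lowest ratio of the ring and the smallest p of all subunits. It gave -0.31, -0.30, -0.14, -0.11, -0.15 and -0.30 (SD 0.09, n = 6), below 0 on every array and in a narrow range. The fit was -0.22 (SE 0.08, 95% interval -0.42 to -0.02), or 1.16-fold lower, with an unadjusted p of 0.039 and an adjusted p of 0.90 in limma. Without centring, on Gapdh spots and with quantile normalization it was 0.03, 0.04 and 0.04, all still under the median of all probes. Its unadjusted p was under 0.05 in 11 of 23 alternatives and ran from 0.015 to 0.90.

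Psmb5, the chymotrypsin-like subunit, was also below 0 on all 6 arrays, at -0.17, -0.44, -0.18, -0.001, -0.15 and -0.02. The 3 values with the mutant in Cy5 were lower than the 3 with it in Cy3, so the groups of arrays did not overlap. Its fit was -0.16 (SE 0.08). Psmb6, the caspase-like subunit, was the nearest to 0 in the ring, with 0.15, -0.02, -0.09, -0.02, -0.13 and 0.01 and a fit of -0.02 (SE 0.08). The non-catalytic Psmb1 (-0.08), Psmb2 (-0.11) and Psmb3 (-0.15) had fits between those of Psmb6 and Psmb7. Psma6, Psmb5 and Psmb7 were the subunits below 0 on every array, 3 of the 46 tested, where 3.12% of all probes were so. An exact two-sided permutation test that flips the signs of the arrays gave p = 0.03125 for each, the smallest possible with 6 arrays. Any probe with 6 values of one sign gets this p, so it adds nothing to that pattern. With 3 wild types the smallest possible p is 0.25.

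The immune and thymic beta subunits had no common direction. The fitted median of their 5 probes was -0.01, and their array medians averaged 0.04 ± 0.10 (SD, n = 6). Psmb9 had the smallest p and gave 0.40, 0.18, 0.41, -0.07, -0.04 and 0.25, above 0 on 4 arrays and on all 3 with the mutant in Cy5. Its fit was 0.19 (SE 0.09, limma adjusted p = 0.90). Psmb10 gave -0.14, 0.00, -0.05, 0.10, 0.11 and -0.02, close to 0 in each mutant, with a fit of 0.00 (SE 0.07).

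Psmb8 has 2 probes, with opposite signs in mutants 3, 6, 1 and 4 and the same sign in mutants 5 and 7. The first gave 0.40, 0.25, 0.13, -0.17, -0.30 and -0.48, above 0 with the mutant in Cy5 and below 0 with it in Cy3. The second gave -0.08, 0.12, -0.47, 0.31, 0.24 and -0.18, with no such split. Their fits were -0.03 (SE 0.09) and -0.01 (SE 0.12), so both put Psmb8 near 0. The dye term of the first, the difference between the orientations, was 0.57 (limma, adjusted p = 0.14).

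Psmb11, the thymic subunit, gave -1.19 and -0.43 in mutants 3 and 6, no value in mutant 5, and 0.47, 0.40 and 0.86 in mutants 1, 4 and 7. It was thus below 0 with the mutant in Cy5 and above 0 with it in Cy3, and its fit over 5 arrays was -0.13 (SE 0.16). Setting each catalytic subunit beside its immune counterpart, Psmb5 was at -0.16 and Psmb8 at -0.03 and -0.01, Psmb6 at -0.02 and Psmb9 at 0.19, and Psmb7 at -0.22 and Psmb10 at 0.00. The immune partner had the higher fit in each of the 3 pairs, which was not tested. For the first probe of Psmb8 the order depended on the dye. It averaged 0.26 against -0.26 for Psmb5 with the mutant in Cy5, but -0.32 against -0.05 with it in Cy3. The second probe, at -0.14 and 0.13, lay above Psmb5 in both orientations, and the other pairs kept their order too. Psmb9 averaged 0.33 with the mutant in Cy5 and 0.04 with it in Cy3.

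**Figure D2:**
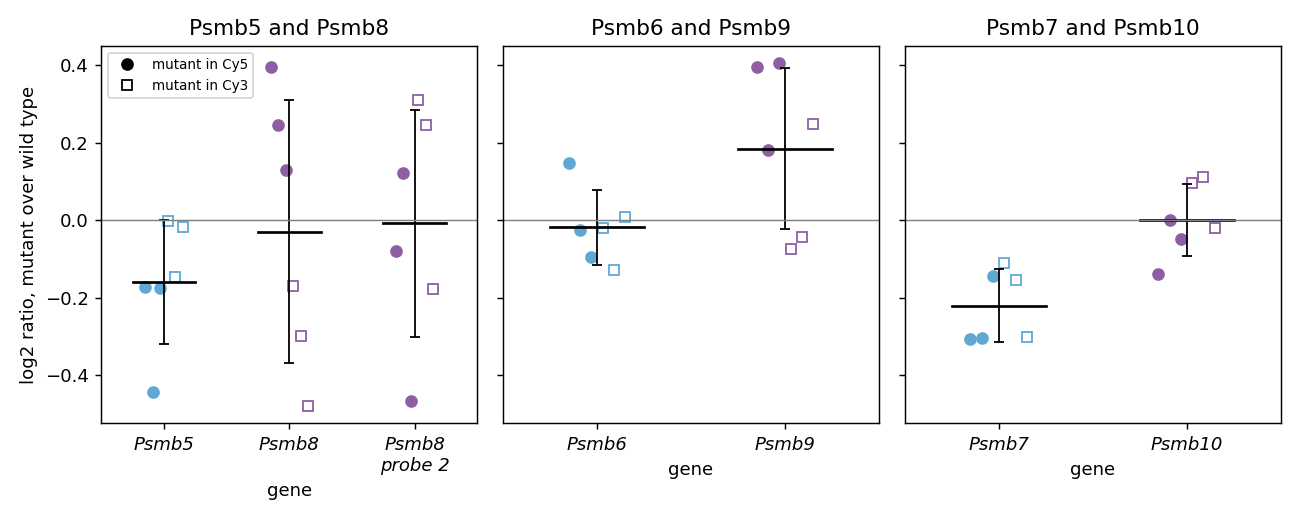
Log2 ratio of mutant over wild type on each array (y axis) for the catalytic beta subunits and their immune counterparts (x axis), with the mean as a line and the SD as a bar over 6 arrays, filled circles for the mutant in Cy5 and open squares for the mutant in Cy3. Psmb7 lies below 0 on every array in a narrow range, the first probe of Psmb8 is split by dye, and the zero line is the array median, without which Psmb7 was at 0.03.

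The genes that interferon and antigen presentation use beside these subunits did not move together either. Of 8 tested probes, 5 had a fit above 0 and 3 below, with a median of 0.07. Tap2, a peptide transporter encoded beside Psmb8, was measured on 4 arrays and gave -1.97, -0.89, -3.39 and -2.04 in mutants 3, 6, 4 and 7. Its fit was -2.14 (SE 0.35, limma adjusted p = 0.90). Tap1, known to share a promoter region with Psmb9, split by dye at -1.19, -1.72, 0.58 and 1.89 in mutants 3, 6, 1 and 7. The 7 tested probes of microglia and macrophage markers, cells that use immune subunits, had a median of 0.07, and their part in these values was not tested.

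The regulatory particle had a median close to that of the array. Its 18 tested probes had a fitted median of -0.02, with 13 below 0 (72.2%) and 5 above, where 48.7% of all tested probes were below. Their median lay under that of all probes in 22 of 23 alternatives and 0.03 above it with the Cy5 arrays alone. The array medians were -0.03, 0.12, 0.08, -0.11, 0.00 and -0.21, on both sides of 0 (mean -0.03 ± 0.12, SD, n = 6). The core median minus the regulatory median was -0.11, -0.21, -0.17, 0.09, -0.10 and 0.03 on the 6 arrays (mean -0.08 ± 0.12). The core was the lower of the 2 particles on 4 arrays, among them all with the mutant in Cy5, and the mean difference was smaller than its SD over arrays. The differences with the mutant in Cy5 were all below those with it in Cy3, the nearest being -0.113 and -0.0955. The difference between the particles thus varied with the dye.

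The ATPases, which unfold the substrate, had fits from -0.08 to 0.30, with 5 of 6 below 0. Psmc4 stood above the others and gave 0.36, 0.78, 0.37, -0.31, 0.49 and 0.09, above 0 on 5 of 6 arrays. Its fit was 0.30 (SE 0.14, limma adjusted p = 0.90). Psmc6, the lowest, gave -0.51, 0.37, -0.03, -0.41, 0.74 and -0.63, with both values above 0 on the arrays of wild type 8. Its fit was -0.08 with an SE of 0.24, so it was known less well than the rest. Psmc1 (-0.08), Psmc2 (-0.01), Psmc3 (-0.06) and Psmc5 (-0.01) stayed near 0.

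Among the non-ATPase subunits, Psmd6 of the lid had the smallest p and the lowest fit. It gave -0.14, -0.46, 0.01, -0.16, -0.52 and -0.26, below 0 on 5 of 6 arrays and lowest on the arrays of wild type 8. Its fit was -0.25 (SE 0.10, unadjusted p = 0.054, adjusted p = 0.90, limma). Psmd12, another lid subunit, gave -0.07, -0.57, 0.01, -0.12, -0.60 and -0.10. It was low on the arrays of wild type 8 and near 0 elsewhere, and its fit was -0.24 (SE 0.13) on all arrays.

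Psmd3, a lid scaffold, had the highest fit, over 5 arrays. It gave no value in mutant 3, and 2.93, 0.61, -0.88, 0.18 and -0.90 in mutants 5, 6, 1, 4 and 7, a range with values on both sides of 0. The values with the mutant in Cy5 were all above those with it in Cy3, with a dye term of 2.26 (limma, adjusted p = 0.20). The genotype fit was 0.60 (SE 0.42). Psmd8, also measured on 5 arrays, was as uncertain at 0.29 (SE 0.44).

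Psmd9, an assembly chaperone of the ATPase ring counted here by its symbol, gave 0.52, 1.32, 0.24, -0.26, 0.40 and 0.39, above 0 on 5 of 6 arrays, with a fit of 0.43 (SE 0.20). Psmd2, a scaffold of the base, was at 0.09. The ubiquitin receptor Psmd4 (-0.01), the deubiquitinase Psmd14 (-0.05) and Psmd7 (-0.01), its partner in the lid, were near 0, as were Psmd13 (-0.03) and Psmd10 (-0.06), which like Psmd5 (-0.13) is a chaperone of base assembly.

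Psmd1 and Psmd11 could not be tested. Psmd1, a scaffold of the base, gave -0.26, -2.94 and 4.52 in mutants 3, 6 and 1. Psmd11 gave 0.24 and -0.12 in mutants 3 and 6, and on the array of mutant 5 its entry was at the ceiling of the file. These spreads allow no statement on either gene.

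**Figure D3:**
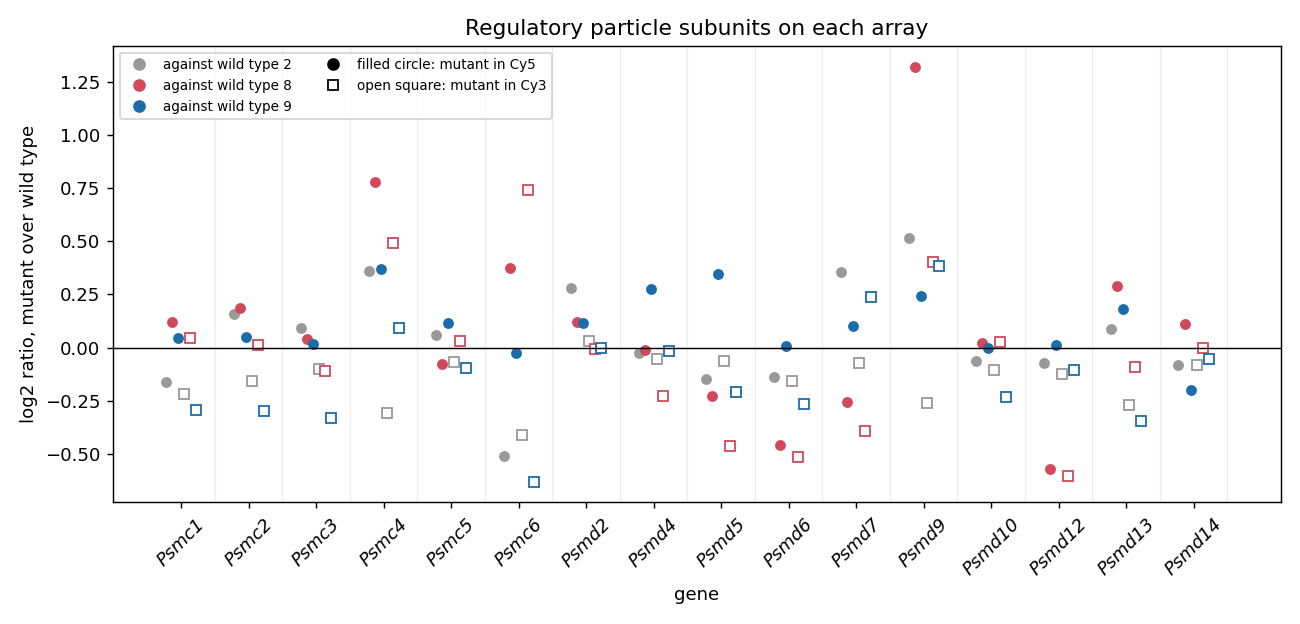
Log2 ratio of mutant over wild type (y axis) of the 16 regulatory particle probes with a value on all 6 arrays (x axis), coloured by the wild-type cortex of the array, with filled circles for the mutant in Cy5 and open squares for the mutant in Cy3. Psmd5, Psmd6, Psmd7 and Psmd12 have both values of wild type 8 at the bottom, and Psmc4, Psmc6, Psmd10 and Psmd14 have them at the top. The zero line is the array median.

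Some of these probes grouped by the wild-type cortex on the array, a pattern looked for after the values were seen. Of the 42 subunit probes with all 6 values, 5 had both arrays of wild type 8 below the other 4 (Psmd5, Psmd6, Psmd7, Psmd12 and Psme3), where 8.59% of all 13531 probes with 6 values did. Another 5 had both above (Psmc4, Psmc6, Psmd10, Psmd14 and Psmf1), against 11.1% of all. Each count is 11.9% of the subunits, near the background. Of the 16 regulatory particle probes 4 were in each set, a share of 25% over few probes, which was not tested. The base chaperones Psmd5 and Psmd10 are among them. For wild type 2 the counts were 0 below and 0 above, against 6.78% and 5.76% of all probes. For wild type 9 they were 1 below, the second probe of Psmb8, and 0 above, against 5.29% and 4.31%. The arrays of wild type 8 also had the largest offsets before centring, deposited medians of 0.76 for mutant 5 and -0.59 for mutant 4, whose part in these values was not tested.

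Dye orientation moved the members about as it moved other probes. Of the 46 tested subunit probes, 12 (26.1%) separated the orientations with no overlap of values, where 29.7% of all probes did. In 8 of them the ratios with the mutant in Cy5 were all above those with it in Cy3, against 14.5% of all probes. In 4, 3 of them of the core, they were all below, against 15.3%. Of the 18 tested regulatory probes, 5 (27.8%) were all above and 0 all below. The median dye term of the regulatory particle was 0.16, against 0.04 for all probes, which was not tested. The dye term passed the adjusted threshold for 0 members and for 0.269% of all probes. The medians of the ATPases were 0.08, 0.15 and 0.05 with the mutant in Cy5, and -0.19, 0.04 and -0.30 with it in Cy3. These medians of the ATPases did not overlap between the orientations. Those of the core, of the whole regulatory particle and of the non-ATPase subunits did, but the difference of core minus regulatory particle did not.

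**Figure D4:**
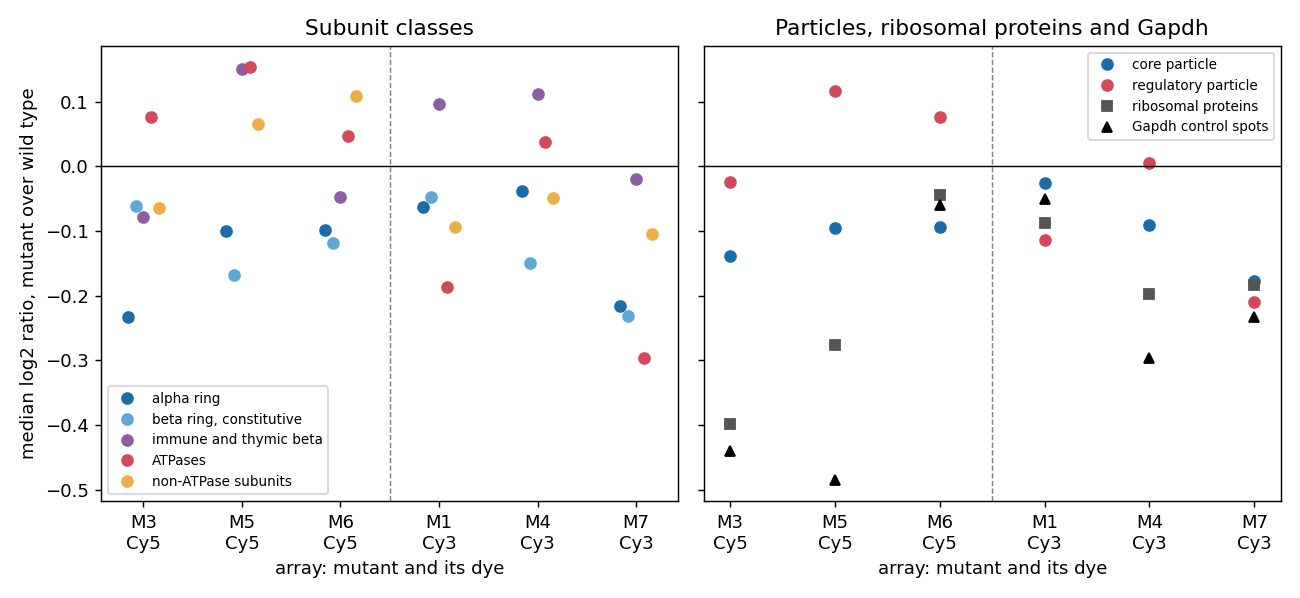
Median log2 ratio of mutant over wild type on each array (y axis, 0 being the array median) by subunit class (left) and for the particles, 67 ribosomal protein probes and 232 Gapdh control spots (right), with the arrays labelled by mutant and its dye (x axis). The core medians lie below 0 on all 6 arrays and the regulatory medians on both sides of it, while the fitted core median was 0.14 without centring. Ribosomal proteins and Gapdh also lie below 0 on all 6 arrays, and without centring the ribosomal median was 0.06 and Gapdh lay on both sides of 0.

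The activators open the gate of the core in place of the regulatory particle, and Psmf1 inhibits it. The activator Psme4, which acts in the nucleus, was above 0 on every array, as were 2.44% of all tested probes. It was the only such gene among those counted as subunits, and gave 0.11, 0.10, 0.03, 0.14, 0.08 and 0.22 (SD 0.07, n = 6). Its fit was 0.11 (SE 0.07, limma adjusted p = 0.90). The exact sign-flip permutation p was 0.03125, again the smallest possible and the p that any 6 values of one sign get. Psme1, an interferon-inducible activator, gave 0.26, 0.23, 0.45, -0.28, -0.01 and 0.21, higher with the mutant in Cy5 than in Cy3, and its fit was 0.14 (SE 0.10). The probe of Psme2b gave -0.03, -0.02, 0.03, -0.03, -0.09 and -0.13 (SD 0.06), the tightest of the class, with a fit of -0.05 (SE 0.07). The nuclear activator Psme3 (-0.04) and Psmf1 (0.05) were near 0.

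The assembly chaperones help to build the alpha ring. All 4 of their fits lay below 0, with a median of -0.11, though 3 of the 4 lay above 0 without centring. Psmg1 had the lowest fit and the smallest p, with -0.90, 0.09, 0.19, -0.35, -0.26 and -0.69. It was below 0 on 4 arrays and lowest in mutants 3 and 7, and the fit was -0.32 (SE 0.20). Psmg4, the highest, gave -0.74, -0.18, -0.03, 0.32 and 0.12 in mutants 3, 5, 6, 1 and 4, with a fit of -0.03 (SE 0.16) over 5 arrays. Psmg2 was at -0.08 and Psmg3 at -0.14.

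Psme3ip1, a protein that binds the activator Psme3, had the smallest p of all 48 tested probes. It gave 0.35, 0.85, 0.68, -0.16, 0.02 and 0.43, above 0 on 5 of 6 arrays. Its fit was 0.36 (SE 0.13, 95% interval 0.04 to 0.68), with an unadjusted p of 0.032 and an adjusted p of 0.90 in limma. The unadjusted p was under 0.05 in 16 of 23 alternatives and ran from 0.0038 to 0.62 in limma. Its mean ratio was 0.63 with the mutant in Cy5 and 0.09 with it in Cy3. Psmc3ip, which acts in meiotic recombination and binds Psmc3, was at 0.05 (SE 0.07).

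Around the proteasome, 76 tested probes of 7 lists of the ubiquitin pathway gave 0 calls at the adjusted threshold, in which 0% of all probes were called, 49 fits below 0 and 27 above. At an unadjusted p of 0.05, 1 was lower and 2 were higher, where 2.33% and 1.6% of all tested probes were. The partners of the proteasome and the shuttles that bring it substrates were the list nearest to the core: 12 of 13 probes had a fit below 0, with a median of -0.11 and with every array median below 0, but the fitted median was 0.15 without centring, 0.16 on Gapdh spots and 0.14 with quantile normalization. Among them the ubiquitin shuttle Rad23b had the smallest p, at -0.20 (SE 0.09), followed by the shuttles Ubqln2 (-0.13) and Ubqln1 (-0.16). The core assembly factor Pomp was at -0.07 and the deubiquitinase Usp14 at 0.04.

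The list of regulators of subunit transcription, the inhibitor Keap1 among them, gave a fitted median of 0.00, with 4 of 8 below 0. Its array medians ran from -0.11 to -0.05 and so, like those of the partners, lay below 0 on all 6 arrays. Nfe2l1 itself was at 0.02 and Nfe2l2 at 0.08. Their small Maf partner Maff (-0.17), the inhibitor of Nfe2l2, Keap1 (-0.11), and the segregase Vcp (-0.08) had the smallest p. In the list of Vcp and its cofactors 4 of 6 probes were below 0, Vcp among them, and Ubxn4 was at 0.53 (SE 0.25) and Ufd1 at 0.11.

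Of the list of ubiquitin precursors and activating enzymes, the 5 tested probes were all of activating enzymes, and 3 had a fit above 0, with Uba3 at 0.11, Uba6 at -0.54 and Uba1y at 0.21. The conjugating enzymes had 18 of 28 below 0. Among these Ube2b gave 0.50, 0.74, 0.10, 0.25, 0.65 and 0.28, above 0 on every array, with a fit of 0.42 (SE 0.12, limma adjusted p = 0.90), but its other probe was at -0.02. Ube2c, which works with the anaphase-promoting complex in mitosis, gave -0.58, -0.43, -0.09, -0.10, -0.33 and -0.27, below 0 on every array, with a fit of -0.30 (SE 0.11, limma adjusted p = 0.90). Ube2v1, a partner in chain building, was at 0.35 (SE 0.14).

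The COP9 signalosome, a complex related to the lid that removes Nedd8 from cullins, had 5 of 8 probes below 0, with Cops5 at -0.26, Cops6 at -0.13 and Gps1 at 0.17. Among the cullins and their RING partners, 5 of 9 were below 0. Cul3, the scaffold of the ligase that Keap1 serves, gave 0.43, 0.31, 0.07, 0.19, 0.40 and 0.39, above 0 on every array, with a fit of 0.30 (SE 0.10, limma adjusted p = 0.90). Rbx1 (-0.18) and Rnf7 (-0.18) had fits on the other side.

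Other groups of probes also had ratios below the array median. The 67 tested probes of cytosolic ribosomal proteins had a median of -0.19, with 62 below 0, which became 0.06, 0.07 and 0.07 without centring, on Gapdh spots and with quantile normalization. Their array medians were -0.40, -0.28, -0.04, -0.09, -0.20 and -0.18. The 232 Gapdh control spots had array medians of -0.44, -0.49, -0.06, -0.05, -0.30 and -0.23 (mean -0.26 ± 0.18, SD, n = 6), which without centring lay on both sides of 0 (mean -0.01 ± 0.31). The 7 tested probes of erythroid genes, markers of blood, all had a fit below 0, with a median of -0.25, which became 0.00, 0.01 and -0.01 in the same 3 settings. Their array medians were -0.37, -0.61, -0.17, -0.08, -0.12 and -0.39. The medians of all 3 groups, like that of the core, were below 0 on every centred array, and their part in the core's ratios was not tested. Endothelial (0.05), mesenchymal (0.05) and choroid plexus (-0.14) markers had medians on both sides of 0.

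The 5 probes outside the family whose ratios followed the core median most closely over the 6 arrays were those of Bpifb1 (Pearson r = 0.99), Ssty2 (0.98), Stmn4 (0.97), Bcl9 (0.97) and Ndufb7 (0.97). They are the highest of 13487 probes compared, of which 43 had an r above 0.9, over 6 points that share arrays, wild types and dyes. The median r of the probes of the rule with the core median was 0.07.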

How the data were processed

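The deposited values are log2 ratios of the 2 channels of each spotted two-colour array, as read from the values. Total RNA came from a Trizol extraction, per the labels' protocols. What was done to the scans before deposit (software, background, filters, normalization) is not given in the sources used here, nor are the direction and scale. The ratios were taken as Cy5 over Cy3, on a log2 scale, because the deposited values of Mest were -1.10, -1.02 and -1.21 with the mutant in Cy5 and 1.49, 1.49 and 1.73 with it in Cy3. The direction of every ratio therefore rests on Mest. Without spot intensities, dim or saturated spots could not be told apart and intensity-dependent normalization could not be applied. The number of arrays limits the precision. Between 75.4% and 89.9% of probes had a value.

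Ratios were turned to mutant over wild type and centred on each array's median. Entries at the ceiling (590 values) were treated as missing, and the 232 Gapdh control spots were left out of the tests. Probes needed at least 4 values, with 2 in each orientation. R 4.3.3 and limma 3.58.1 (lmFit, eBayes) fitted genotype and dye terms, with the wild-type cortex as a random block (duplicateCorrelation, 0.25) and with Benjamini-Hochberg adjustment over all 17476 probes at 0.05. Psmb11, Psmd3, Psmd8 and Psmg4 were fitted on 5 arrays. The fit was tested on 3 simulated datasets. It called 48.7% of probes changed by 1 log2 unit and 73% of those changed by 2, with 9.67 false calls per dataset. In the real arrays Mest, with a fit of -1.59, was not called (limma adjusted p = 0.60), so those rates may not hold here. Each mutant is an embryo of its own, and differences between wild types and hybridisations add to the spread. Sign-flip tests over arrays were exact and two-sided.

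The members and the lists were chosen with earlier results of these data known. Values on every array are given for the smallest p and the highest and lowest fit of each class and for the catalytic pairs, and each pathway list is shown by the fits of the 3 genes with the smallest p. Psme3ip1, Psmd9, Psmd12, the untested probes, Tap1 and Tap2 and the pattern of wild type 8 were added after their values were seen, as were Pomp, Usp14, Nfe2l1 and Nfe2l2. Gene names came from the platform annotation, and 50 of 50 members matched the RefSeq gene table of GRCm38.p6 through Entrez identifiers, with 0 symbols differing. Alternatives changed the centring (none, Gapdh, scale, quantile), the block, the dye term, the filter, the ceiling, robust eBayes, the threshold and probes per gene, or left out arrays, orientations or wild types.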

Additional observations from a re-analysis of the deposited data

Results flagged for a closer look

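Among 59 sets of values over the arrays, 1 had an array far from the others. The ratio of Psma8 in mutant 3 was -4.68, while its other 5 values lay between -0.38 and 0.33, so that the gap to the nearest value took 0.858 of the whole range. Chance alone sets about 1 in 20 such sets apart. The cause was not tested.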

How the results depend on the processing

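The number of members called stayed at 0 in 24 alternatives for genotype, in which limma called 0 of all probes too, and in 20 for the dye term. The pathway lists also gave 0 calls in 23 alternatives. At an unadjusted p of 0.05, up to 2 members were lower and up to 18 higher, the latter with quantile normalization. That setting moved the median of all probes up too. The share of all probes that were higher in it was not counted, so the 18 cannot be read as particular to the members. The sign of the medians depended on the reference point: without centring, the core, the regulatory particle, the activators with the assembly chaperones, and the pathway lists were at 0.14, 0.23, 0.21 and 0.22. Centred on Gapdh spots they were at 0.15, 0.24, 0.21 and 0.23, and with quantile normalization at 0.15, 0.23, 0.22 and 0.21. The median of all probes moved to 0.26 in each of these. With the Cy5 arrays alone the pathway median was 0.021, and the cause was not tested. Leaving out single arrays gave core medians of -0.12 to -0.08, regulatory medians of -0.06 to -0.004, activator and assembly medians of -0.06 to -0.02 and pathway medians of -0.05 to -0.02, with 0 calls in each. The counts over all probes of the dye term were less stable, with 47 as reported, 0 to 26 after leaving out an array and 0 to 658 over the 20 alternatives, the highest without centring. With 4 arrays the block correlation could not be estimated, and that of all 6 was used. Each array sets a mutant against a wild type, so the fitted ratios are already paired by array. They form 1 group, and no further pairing was made. The limits are the 3 wild-type cortices behind the 6 arrays, the unknown processing before deposit and the absence of signal levels here, so that dim probes could not be set apart.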
